A study of Mus musculus with 6 samples.

Results

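The 35 genes described here encode the steps of glycolysis from glucose uptake to lactate export, the oxygen sensors that control the hypoxia-inducible factor HIF-1, and further genes of the hypoxia response. They were taken as a list of symbols by their function, with earlier results of these data known, out of 28249 genes that had a probe tested on 6 single-colour Agilent mouse arrays. All 35 had at least 1 probe. Of these, 27 were bright enough for the main test, 7 lay under its minimum intensity, and Hk2 could not be tested because its probe had no usable spot on WT array 2.

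The cells were TEa CD4+ T cells, which carry a transgenic T cell receptor (Vα2+Vβ6+) that recognises a peptide from donor MHC class II. CD45.2+ cells of WT or Irf4-/- genotype on a C57BL/6 background were transferred on day -1 into CD45.1+ B6.SJL hosts. The hosts were grafted with a Balb/c heart on day 0, and the cells were recovered from the spleen by sorting on day 6. The 3 groups were WT cells with rat IgG (dose not stated), Irf4-/- cells with 400 µg rat IgG on days 0, 3 and 5, and Irf4-/- cells with 200 µg antibody to PD-L1 plus 200 µg antibody to CTLA-4 (9D9) on the same days. Each group has 2 arrays from independent experiments. All 6 samples came from transplanted recipients whose own CD45.1+ cells were still present, and no group without a transplant or without antibody was used here.

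Glycolysis splits glucose into pyruvate, and activated T cells turn most of that pyruvate into lactate even where oxygen is present. When oxygen is low, the prolyl hydroxylases of the Egln family stop marking HIF-1α for destruction, and HIF-1 raises glucose transporters, most glycolytic enzymes, Pdk1 and Egln3. T cell receptor signalling also raises HIF-1α, and Irf4, a transcription factor induced by the receptor, is known to be needed for full glycolytic gene expression in activated CD8+ T cells. The first comparison therefore asks what loss of Irf4 changes in this programme in CD4+ T cells that respond to a graft, and the second asks what checkpoint blockade changes in cells that lack Irf4.

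Promoters are given as the 250 bases before the RefSeq start (GRCm38.p6). The 4 members shown from under the minimum intensity had the largest called changes on either scale used for them below (Egln3, Mgarp, Slc16a3 and Vegfa). Of these, Vegfa entered the test through Irf4-/- IgG alone, the group in which it is high, so its call is not read as a result. The promoter of Slc16a1, the only bright member past the threshold of the main test, was added after its values were seen. Capitals mark the core of the hypoxia response element, ACGTG or GCGTG on either strand (CACGT or CACGC when read on the printed strand, which overlap in CACGTG).
Egln3, chr12:54203875-54204124, minus strand: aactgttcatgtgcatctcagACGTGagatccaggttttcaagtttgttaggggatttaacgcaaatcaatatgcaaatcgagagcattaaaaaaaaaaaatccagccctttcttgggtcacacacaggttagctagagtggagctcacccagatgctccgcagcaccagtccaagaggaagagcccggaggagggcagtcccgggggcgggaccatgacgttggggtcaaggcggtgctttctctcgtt
Mgarp, chr3:51396548-51396797, minus strand: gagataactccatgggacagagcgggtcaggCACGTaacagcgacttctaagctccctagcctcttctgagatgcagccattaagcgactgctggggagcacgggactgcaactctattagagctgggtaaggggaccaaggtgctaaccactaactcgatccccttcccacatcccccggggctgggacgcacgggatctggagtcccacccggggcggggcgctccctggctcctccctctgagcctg
Slc16a3, chr11:120948817-120949066, plus strand: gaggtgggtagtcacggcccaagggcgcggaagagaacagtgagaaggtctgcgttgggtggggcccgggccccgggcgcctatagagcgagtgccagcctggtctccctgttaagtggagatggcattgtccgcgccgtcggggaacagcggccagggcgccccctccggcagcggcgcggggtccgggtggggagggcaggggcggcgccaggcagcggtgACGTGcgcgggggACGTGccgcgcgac
Slc16a1, chr3:104638414-104638663, plus strand: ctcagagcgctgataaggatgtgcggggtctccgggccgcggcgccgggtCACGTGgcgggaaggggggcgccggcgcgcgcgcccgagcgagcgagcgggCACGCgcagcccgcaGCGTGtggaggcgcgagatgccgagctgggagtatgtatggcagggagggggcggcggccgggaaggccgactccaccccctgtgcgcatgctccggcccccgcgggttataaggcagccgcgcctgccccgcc
Vegfa, chr17:46032378-46032627, minus strand, the first of 2 windows listed: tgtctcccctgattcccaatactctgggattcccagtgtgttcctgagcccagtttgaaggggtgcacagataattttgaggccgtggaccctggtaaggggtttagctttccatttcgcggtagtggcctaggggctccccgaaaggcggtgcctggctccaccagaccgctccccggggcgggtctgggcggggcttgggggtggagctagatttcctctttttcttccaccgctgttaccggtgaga

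The core lies 229 bases before the start in Egln3, 219 in Mgarp, 27 and 14 in Slc16a3, and 200, 149 and 134 in Slc16a1. The printed window of Vegfa holds none, and its second listed window holds 2, at 218 and 211 bases before another start. The RefSeq promoter table held 50 windows for 33 of the 35 members. Of these windows 41 (82%) held the core, against 57.7% of the 6920 windows of bright genes and 38.6% of all 32851 windows. Median GC content was 61% in the members' windows, 59.6% in those of bright genes and 52.4% in all windows. A pair of GAAA repeats with 2 bases between them, as in interferon-type response elements, stood on either strand in 1 of the 50 windows (2%), that of Vegfa printed above, and in 2.98% of all windows. A match describes letters in the window and is not a measured binding site.

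A limit of the arrays bears on every comparison with the Irf4-/- IgG group. On its 2 arrays 65.8% and 75.2% of probes stood well above background, compared with 34.8% to 40.8% on the other 4. Markers of some other cells were higher there too. The summed intensity of 9 B cell markers, scaled to the bright genes, was 190 to 251 in WT, 1120 and 3560 in Irf4-/- IgG and 411 to 546 in blockade, and all 9 were highest on both Irf4-/- IgG arrays. All 9 stood well above background there, against 2 or 3 of them on each other array. For 9 markers of monocytes, macrophages and neutrophils the sums were 4800 and 4300, 8300 and 46000, and 4620 and 9880 in the 3 groups in that order. Of these 9, 5 were higher on both Irf4-/- IgG arrays than on the other 4. For 9 erythroid and platelet markers the sums were 230 and 645, 1650 and 37400, and 12200 and 9670, with 2 of the 9 highest on both. Of these 3 lists, only in that of B cells did the sums of both Irf4-/- IgG arrays lie above the other 4 arrays. Blockade array 2 lay above Irf4-/- IgG array 1 for monocytes, macrophages and neutrophils (9880 against 8300). Both blockade arrays did so for the erythroid and platelet markers. In 3 further lists the sums of Irf4-/- IgG did not lie above all those of the other 4 arrays either. The sums of 4 plasma cell markers were 3210 and 3060, 2640 and 3090, and 2370 and 2730, those of 6 dendritic cell markers 8610 and 11600, 24900 and 8910, and 7950 and 6620, and those of 5 CD8 T and NK cell markers 900 and 785, 928 and 938, and 745 and 1460. Of these markers, 1 of the 4, 3 of the 6 and 2 of the 5 were higher on both Irf4-/- IgG arrays than on the other 4. On the Irf4-/- IgG arrays 4 and 5 dendritic cell markers stood well above background, against 1 on each other array. For the CD8 T and NK cell markers it was 3 and 5, against 2 on each other array. Tnfrsf17 (plasma cells) and Zbtb46 (dendritic cells) were not well above background on any array. The 10 T cell markers were well above background on every array. Their sums were 324000 and 309000 in WT, 248000 and 262000 in Irf4-/- IgG, and 296000 and 300000 in blockade, lowest on the Irf4-/- IgG arrays. Marker by marker on the quantile-normalised values, 4 lay above 0 and 6 below in Irf4-/- IgG against WT, with a median of -0.03. In blockade against Irf4-/- IgG all 10 lay below 0, with a median of -0.25. Of all bright genes 47.5% and 53.0% lay above 0 in these comparisons. The rise of the sum from Irf4-/- IgG to blockade was therefore not seen in the single markers on that scale. The part of these other cells in the results below was not tested, and in bulk samples fewer cells of a type and less RNA per cell cannot be told apart. The targeted gene did not read lower in the arrays labelled Irf4-/-. The brighter of its 2 probes had log2 values of 9.61 and 9.81 in WT, 11.21 and 11.07 in Irf4-/- IgG and 11.09 and 11.14 in blockade, and where these probes lie relative to the deleted part is not known here, so they do not check the label. Groups are named here as the labels name them.

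Because of the extra signal in weak probes, genes were compared on 2 scales. The 8582 bright genes (mean log2 intensity of at least 8 over the arrays) were quantile-normalised among themselves and tested with limma, with the 3 groups fitted together and p-values adjusted by Benjamini-Hochberg over all bright genes. A value on this scale is relative to the other bright genes. Members under the minimum were tested among all 28249 genes, once after subtraction of each array's 75th percentile and once after subtraction of the median of the bright genes, a setting chosen after the data were seen. The 75th percentile was an intensity of 185 and 301 on the Irf4-/- IgG arrays and of 68.0 to 119 on the other 4. On this scale the median bright gene stood at -1.05 in Irf4-/- IgG against WT and at 1.09 in blockade against Irf4-/- IgG, so changes on that scale are read against those shifts. There 58.9% of all genes passed in the first of these comparisons and 58.8% in the second. On the bright-gene median 42.1% passed as higher and 0.835% as lower in the first, and 1.31% as higher and 43.3% as lower in the second. In blockade against WT, 0 of 28249 genes passed on either scale, and 7.76% had an unadjusted limma p under 0.05 on the bright-gene median. Of the 7 members under the minimum, 4 passed in the first comparison on the 75th percentile scale and 5 in the second, Vegfa among them in both, which entered the test through Irf4-/- IgG alone.

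In Irf4-/- IgG against WT, 1 of 27 bright members passed the threshold of 0.05, the monocarboxylate transporter Slc16a1, which rose, and no bright member fell past it. Of all bright genes 160 passed (1.86%), so 1 of 27 is near the background. The median log2 fold change of the members was -0.03, beside -0.02 over all bright genes, with 13 members above 0 and 14 below (47.5% of bright genes were above 0). Without adjustment 2 members were higher and 4 lower at p under 0.05, against 23.4% of bright genes in either direction. The 2 arrays of each group did not overlap with those of the other for 5 members higher in Irf4-/- IgG and 9 lower, against 23.1% and 29.2% of all bright genes. The 95% limma interval of the log2 fold change lay within -1 and 1 for 24 of the 27, and the standard error ranged from 0.11 to 0.53.

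Blockade against IgG in Irf4-/- cells changed none of the 27 bright members past the threshold, where 28 of all bright genes passed (0.326%). Without adjustment, 7 members had a p under 0.05, 4 higher and 3 lower, against 28.5% of all bright genes. The median was -0.05 beside 0.03 over all bright genes, with 13 members above 0, against 53.0% of bright genes. Groups did not overlap for 8 members higher and 7 lower, against 34.0% and 28.9% of all bright genes. In blockade against WT none of the 27 passed either, where 95 bright genes did (1.11%). There 5 members had an unadjusted p under 0.05, 3 higher and 2 lower, against 19.2% of bright genes, and the median was 0.04 beside 0. Groups did not overlap for 8 members higher and 6 lower, against 27.7% and 27.1%, and 16 members lay above 0, against 50.6%. The comparisons share arrays in pairs, so their values are set side by side and not counted as agreement.

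**Figure D1:**
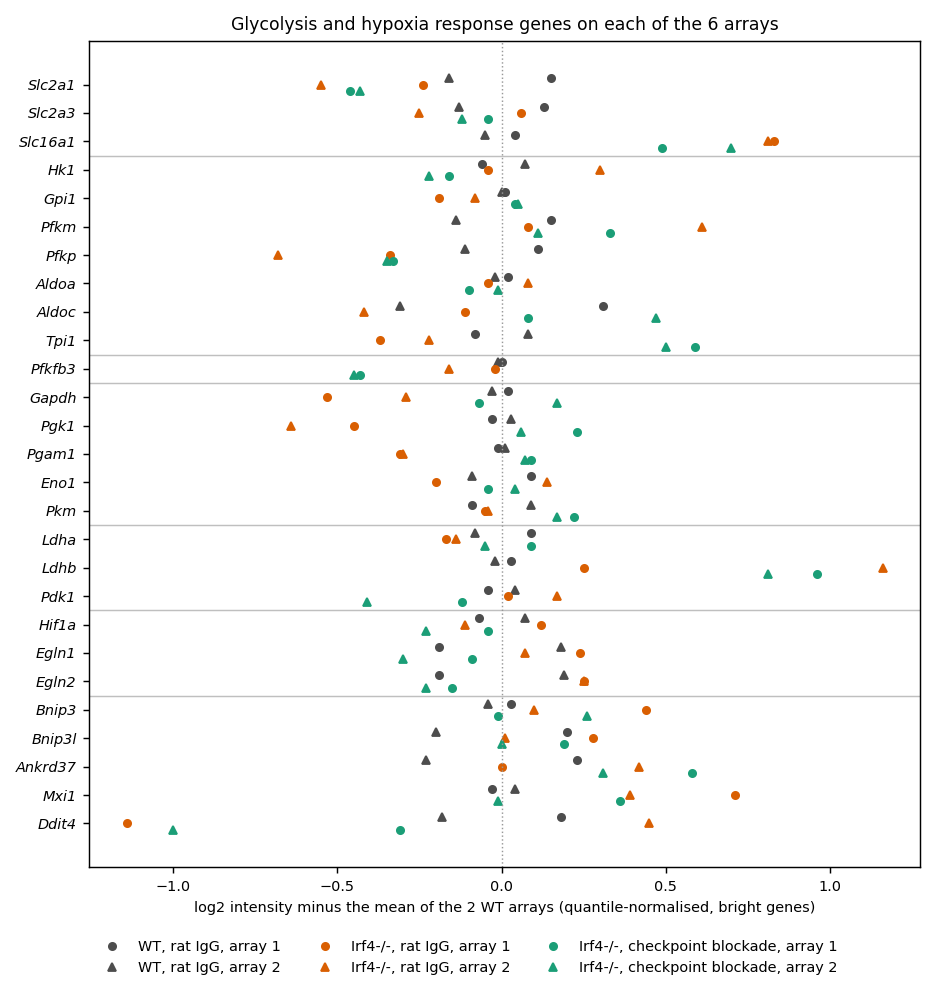
Log2 intensity of the 27 bright members on each array (circles array 1, triangles array 2), minus the mean of the 2 WT arrays, for WT IgG (grey), Irf4-/- IgG (orange) and Irf4-/- blockade (green). Genes are ordered by role with lines between roles. Slc16a1 is the only gene with both Irf4-/- IgG arrays more than 0.5 above both WT arrays, and the Irf4-/- IgG arrays of Ddit4 lie far apart.

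**Figure D2:**
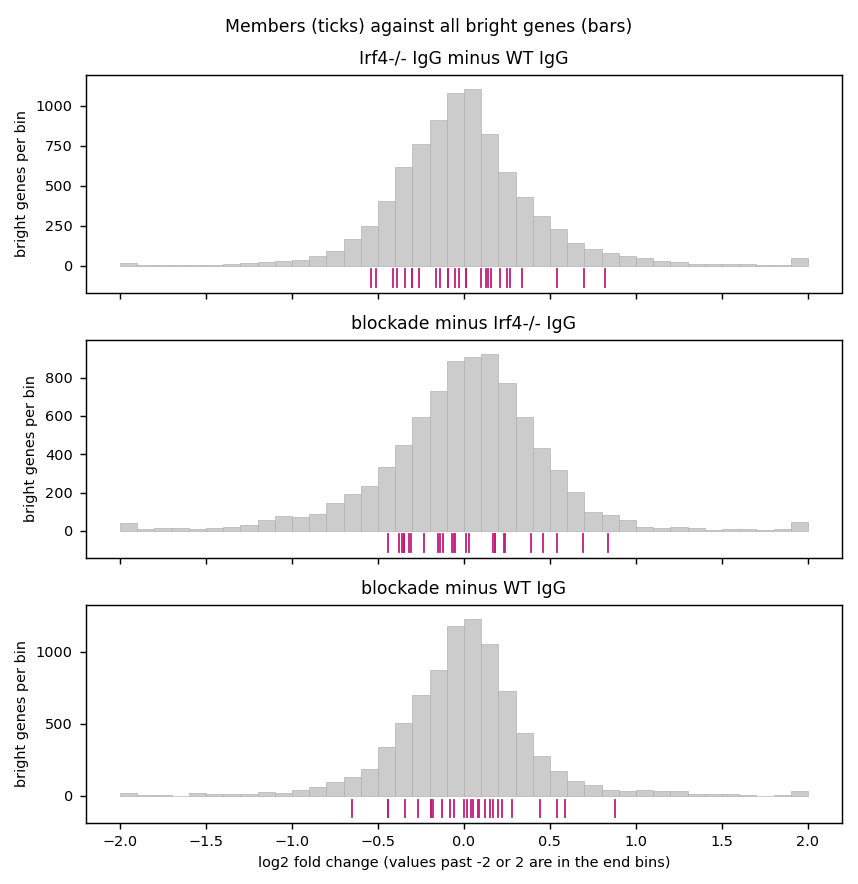
Log2 fold changes of the 27 bright members (ticks) under the distribution of all 8582 bright genes (bars, bins of 0.1, with values past -2 or 2 in the end bins) in the 3 comparisons. The ticks spread over the middle of each distribution, with medians of -0.03, -0.05 and 0.04.

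Among the transporters, which carry glucose in (Slc2a1, Slc2a3) and move lactate and pyruvate across the membrane (Slc16a1, Slc16a3), Slc16a1 had the clearest difference. Its log2 values were 8.93 and 8.84 in WT, 9.72 and 9.70 in Irf4-/- IgG, and 9.38 and 9.59 in blockade. Both Irf4-/- groups were above WT on every array. The change in Irf4-/- IgG was 0.82 (SE 0.12, limma adjusted p = 0.0471), a 1.76-fold rise, and in blockade 0.59 (SE 0.12, adjusted p = 0.0964), which did not pass. The call was made in 9 of 21 alternative settings. Within slide row 1 and row 2, each of which held 1 array of every group, the rise in Irf4-/- IgG was 0.85 and 0.78. The call was lost on leaving out any 1 of the 6 arrays (adjusted p = 0.0859 to 0.196, values of 0.77 to 0.86), with the slide row as a fixed block (adjusted p = 0.0629), and with normexp background correction (0.71, adjusted p = 0.0698). On the 75th percentile scale its difference was -0.09, beside a median bright gene of -1.05.

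Slc16a3 encodes the lactate exporter of highly glycolytic cells and lay just under the minimum, with a mean log2 of 7.97. Its intensities were 130 and 193 in WT, 267 and 416 in Irf4-/- IgG, and 335 and 262 in blockade. Scaled to the bright genes they were 148 and 161, 278 and 283, and 360 and 363, so that the 3 groups stood apart from each other in that order. On that scale the difference of Irf4-/- IgG from WT was 0.86 (SE 0.20, limma adjusted p = 0.0211) and that of blockade from WT was 1.23 (SE 0.20, adjusted p = 0.268), which is larger but does not pass among all genes. On the 75th percentile scale the first was -0.13 (adjusted p = 0.637) and blockade against Irf4-/- IgG was 1.38 (SE 0.22, adjusted p = 0.00900), against a median bright gene of 1.09. Scaled to the bright genes the latter was 0.37 (SE 0.20, adjusted p = 0.194). With the minimum lowered to a mean log2 of 7, Slc16a3 entered the bright genes and passed in blockade against WT at 1.18 (adjusted p = 0.0293), while Irf4-/- IgG against WT was 0.50 (adjusted p = 0.0902) and did not pass. The rise in Irf4-/- IgG was called in 1 of 15 alternative settings, the bright-gene median.

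The glucose transporters did not pass in any comparison of bright genes. On the 75th percentile scale Slc2a1 (-1.26, limma adjusted p = 0.0146) and Slc2a3 (-0.95, adjusted p = 0.0267) passed in Irf4-/- IgG against WT. Both also passed there in blockade against Irf4-/- IgG, at 0.82 (adjusted p = 0.0432) and 0.89 (adjusted p = 0.0318). The median bright gene stood at -1.05 and 1.09 on that scale. The values below are from the bright-gene fit. Slc2a1, the main glucose transporter of activated T cells, read 9.42 and 9.11 in WT, 9.03 and 8.72 in Irf4-/- IgG and 8.81 and 8.84 in blockade. Both Irf4-/- groups were below WT on every array, by 0.39 (SE 0.17, limma adjusted p = 0.241) and 0.44 (SE 0.17, adjusted p = 0.239). Slc2a3, a transporter of higher affinity, differed by no more than 0.09 in size between any 2 groups, with a 95% interval of -0.49 to 0.30 for Irf4-/- IgG against WT.

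The upper enzymes, from hexokinase to triose phosphate isomerase, passed in no comparison of bright genes. Hk1, Gpi1, Pfkm, Pfkp, Aldoa, Aldoc and Tpi1 ranged from -0.51 to 0.34 in Irf4-/- IgG against WT. The lowest was Pfkp, the platelet-type phosphofructokinase, at -0.51 (SE 0.16, limma adjusted p = 0.147). Tpi1, which interconverts the 2 triose phosphates, came closest to the threshold in blockade against Irf4-/- IgG and is given by array because of that, a choice made after its values were seen. It read 11.12 and 11.28 in WT, 10.83 and 10.98 in Irf4-/- IgG, and 11.79 and 11.70 in blockade. The blockade arrays were the highest of the 6, by 0.84 over Irf4-/- IgG (SE 0.13, limma adjusted p = 0.0561) and by 0.54 over WT (SE 0.13, adjusted p = 0.116). Its other 2 probes differed by 0.55 and 0.44 in blockade against Irf4-/- IgG, scaled to the bright genes, where the probe used differed by 0.94. In Irf4-/- IgG against WT the probes disagreed, with -0.03 and 0.38 for the other 2 and -0.38 for the probe used.

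Pfkl, the liver-type phosphofructokinase, was under the minimum. It read 191 and 302 in WT, 253 and 385 in Irf4-/- IgG and 247 and 162 in blockade. It was called on the 75th percentile scale, at -0.82 (limma adjusted p = 0.0299) and at 0.91 (adjusted p = 0.0227) in blockade against Irf4-/- IgG. Both values lie within the shift of the median bright gene, and scaled to the bright genes they were 0.17 and -0.10 with neither passing. Hk2, the inducible hexokinase, had an intensity of 15.6 on the 1 usable WT array, 42.8 and 59.6 in Irf4-/- IgG, and 50.9 and 44.9 in blockade. It has no test. The WT value lies below the other 4, and it rests on 1 array.

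Pfkfb3 and Pfkfb4 make and break fructose 2,6-bisphosphate, the activator of phosphofructokinase. Pfkfb3 read 9.81 and 9.80 in WT, 9.79 and 9.65 in Irf4-/- IgG and 9.38 and 9.36 in blockade. The blockade arrays were the lowest of the 6, by 0.44 under WT (SE 0.11, limma adjusted p = 0.137) and by 0.35 under Irf4-/- IgG (SE 0.11, adjusted p = 0.125), and neither passed. A weaker second probe of Pfkfb3 read 1860 on blockade array 1 and 14.1 to 88.9 on the other 5 arrays, so 1 array sets its group mean. Pfkfb4 was under the minimum and passed on neither scale, with intensities of 72.4 and 126 in WT, 106 and 300 in Irf4-/- IgG, and 75.8 and 51.1 in blockade.

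The 5 bright enzymes of lower glycolysis (Gapdh, Pgk1, Pgam1, Eno1 and Pkm) all had values below 0 by their brightest probe in Irf4-/- IgG against WT, from -0.54 to -0.03, and all had values above 0 in blockade against Irf4-/- IgG, from 0.03 to 0.69. None passed in either comparison of bright genes, and both use the same Irf4-/- IgG arrays. In blockade against WT their values were 0 to 0.20. Pgk1, which makes the first ATP of the pathway, had the largest of these values. It read 14.71 and 14.77 in WT, 14.29 and 14.10 in Irf4-/- IgG and 14.97 and 14.80 in blockade. The Irf4-/- IgG arrays were the lowest of the 6, by 0.54 under WT (SE 0.13, limma adjusted p = 0.0955) and by 0.69 under blockade (SE 0.13, adjusted p = 0.0709). Within the slide rows the differences from WT were -0.67 and -0.42, and those of blockade from Irf4-/- IgG were 0.87 and 0.51.

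The next largest were Gapdh and Pgam1. Gapdh, which reduces NAD+ while oxidising the triose, read 15.85 and 15.80, 15.30 and 15.54, and 15.76 and 16.00 in WT, Irf4-/- IgG and blockade. Its Irf4-/- IgG arrays were the lowest, by 0.41 under WT (SE 0.14, limma adjusted p = 0.176). All 6 of its probes gave values below 0 there, from -0.77 to -0.29 after scaling to the bright genes. Pgam1, the phosphoglycerate mutase, read 12.07 and 12.09, 11.77 and 11.78, and 12.17 and 12.15. It differed by -0.30 in Irf4-/- IgG against WT (SE 0.11, adjusted p = 0.171) and by 0.39 in blockade against Irf4-/- IgG (SE 0.11, adjusted p = 0.0975). Eno1 and Pkm differed by -0.03 and -0.05 from WT in Irf4-/- IgG, with overlapping arrays. Their weaker second probes stood at 0.39 and 0.13 scaled to the bright genes, where the probes used stood at -0.37 and -0.40, so for both genes the probes disagree.

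Calls among these enzymes and Tpi1 depended on the scaling. With each array centred on the median of the bright genes in place of quantiles, Pgk1 passed at -0.88 in Irf4-/- IgG against WT (limma adjusted p = 0.0309), and Tpi1 (0.94), Gapdh (0.94), Pgk1 (1.12), Pgam1 (0.56) and Pkm (0.66) passed in blockade against Irf4-/- IgG with adjusted p from 0.0299 to 0.0498. That setting called 630 bright genes in the second comparison, against 28 with quantiles. With the slide row as a random block Tpi1 passed (adjusted p = 0.0483). By gene, the values of Tpi1, Gapdh, Pgk1 and Pgam1 kept their sign in both comparisons in all 21 alternative settings. Pkm kept it in blockade against Irf4-/- IgG and ranged from -1.39 to 0.08 in Irf4-/- IgG against WT.

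**Figure D3:**
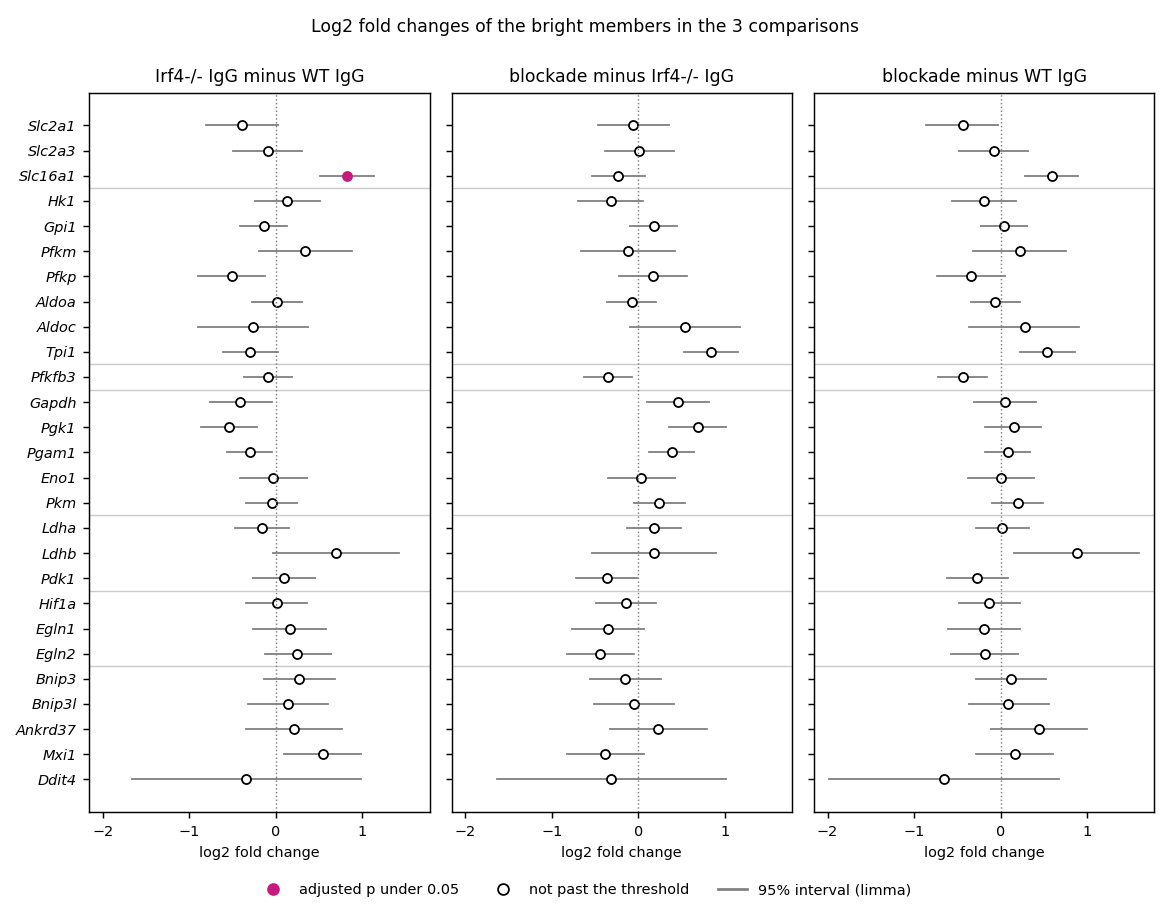
Log2 fold changes (points) with 95% limma intervals (lines) of the 27 bright members in the 3 comparisons, ordered by role. The filled point is Slc16a1 in Irf4-/- IgG against WT, the only value past the threshold. The 5 enzymes from Gapdh to Pkm lie below 0 in the first panel and above 0 in the second, with none past the threshold.

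At the pyruvate step, lactate dehydrogenase subunits Ldha and Ldhb and the pyruvate dehydrogenase kinase Pdk1 passed in no comparison of bright genes. On the 75th percentile scale Ldha (-1.53, limma adjusted p = 0.00942) and Pdk1 (-0.96, adjusted p = 0.0183) passed in Irf4-/- IgG against WT. In blockade against Irf4-/- IgG Ldha (1.69), Ldhb (1.23) and Pdk1 (0.72) passed there. The median bright gene stood at -1.05 and 1.09 on that scale. In the bright-gene fit Ldha, the muscle-type subunit that favours lactate, read 16.00 and 15.83 in WT, 15.74 and 15.77 in Irf4-/- IgG and 16.00 and 15.86 in blockade. That is a difference of -0.16 from WT (SE 0.13, limma adjusted p = 0.488) in Irf4-/- IgG. Scaled to the bright genes it was -0.54 (adjusted p = 0.119), with -0.40 for the weaker second probe. Blockade against Irf4-/- IgG gave 0.68 (adjusted p = 0.0633) on that scale, and 0.53 for the second probe. Ldhb, the heart-type subunit, read 9.78 and 9.73 in WT, 10 and 10.91 in Irf4-/- IgG and 10.71 and 10.56 in blockade. All 4 Irf4-/- arrays were above both WT arrays, but the Irf4-/- IgG arrays lay further from each other than their mean lay from WT. The values were 0.70 (SE 0.29, adjusted p = 0.229) and 0.88 (SE 0.29, adjusted p = 0.196). Pdk1, the kinase that inhibits pyruvate dehydrogenase, was 0.27 lower in blockade than in WT, with a 95% interval of -0.62 to 0.09.

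The transcript of Hif1a, the oxygen-regulated subunit of HIF-1, did not differ detectably in the bright-gene fit. It read 10.82 and 10.96 in WT, 11.01 and 10.78 in Irf4-/- IgG and 10.85 and 10.66 in blockade. The arrays of the 3 groups overlapped. The difference of Irf4-/- IgG from WT was 0.01 (SE 0.14, 95% interval -0.34 to 0.36, limma adjusted p = 0.978) and that of blockade from WT was -0.13 (interval -0.48 to 0.22). On the 75th percentile scale Hif1a passed at -1.05 (adjusted p = 0.0163) in Irf4-/- IgG against WT, where the median bright gene also stood at -1.05. HIF-1α is controlled mainly through protein stability, which these arrays do not measure.

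Of the 3 prolyl hydroxylases that mark HIF-1α, Egln1 and Egln2 were among the bright genes and Egln3 was not. Egln1, the main oxygen sensor, read 11.11 and 11.48 in WT, 11.54 and 11.37 in Irf4-/- IgG and 11.21 and 11 in blockade. Egln2 read 12.42 and 12.80, 12.86 and 12.86, and 12.46 and 12.38. Neither passed in any comparison of bright genes, with 0.16 (SE 0.17) and 0.25 (SE 0.15) in Irf4-/- IgG against WT and -0.19 and -0.18 in blockade against WT. Among all genes on the bright-gene median, the scale on which Egln3 is given below, they stood at 0.05 (limma adjusted p = 0.884) and 0.03 (adjusted p = 0.924) in Irf4-/- IgG against WT. On the 75th percentile scale both passed there, at -0.94 (adjusted p = 0.0258) and -0.96 (adjusted p = 0.0223), and in blockade against Irf4-/- IgG, at 0.78 (adjusted p = 0.0428) and 0.85 (adjusted p = 0.0307), all within the shift of the median bright gene. A weaker second probe of Egln2 differed by 0.84 in Irf4-/- IgG against WT scaled to the bright genes, where the probe used differed by 0.03. The probes of Egln2 therefore disagree. Egln3, which HIF-1 induces, was lower in both Irf4-/- groups. Its intensities were 264 and 276 in WT, 35.1 and 19.5 in Irf4-/- IgG, and 38.5 and 25.9 in blockade. Both WT arrays were brighter than each of the other 4, including the Irf4-/- IgG arrays on which weak probes in general read higher. It was well above background on 1 of the 2 Irf4-/- IgG arrays and on both arrays of the other groups.

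In Irf4-/- IgG against WT, Egln3 fell by 4.57 on the log2 scale after 75th percentile scaling (SE 0.54, limma adjusted p = 0.00635). Scaled to the bright genes the difference was -3.58 (SE 0.52, adjusted p = 0.00472), a 11.9-fold lower intensity that includes the array not well above background, where 0.835% of the 28249 genes passed in the lower direction. The call held in all 14 alternative settings in which it was fitted, with values from -5.34 to -2.59. Within the slide rows the difference was -4.11 and -3.04. Blockade against WT gave -2.77 (SE 0.52, unadjusted p = 0.00318, adjusted p = 0.310) on the bright-gene scale. Its arrays did not overlap with WT, but none of the 28249 genes passed in that comparison on this scale. Blockade against Irf4-/- IgG passed on the 75th percentile scale at 1.82 (adjusted p = 0.0361), but scaled to the bright genes it was 0.81 (SE 0.52, adjusted p = 0.259), with 1.64 in slide row 1 and -0.02 in row 2.

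Mgarp, a mitochondrial protein that HIF-1 induces and that takes part in moving mitochondria, was also highest in WT. Its intensities were 283 and 260 in WT, 33.0 and 74.3 in Irf4-/- IgG and 88.3 and 44.2 in blockade. Both WT arrays were above the other 4, and the 2 Irf4-/- groups overlapped in these unscaled values. Scaled to the bright genes they did not, at 34.3 and 50.6 in Irf4-/- IgG and 95.1 and 61.3 in blockade. In Irf4-/- IgG against WT it fell by 3.66 on the 75th percentile scale (SE 0.35, limma adjusted p = 0.00563). Scaled to the bright genes the difference was -2.66 (SE 0.38, adjusted p = 0.00443), a 6.34-fold lower intensity, with -2.10 and -3.23 within the slide rows. This call too held in all 14 alternative settings. Blockade against WT was -1.79 (SE 0.38, adjusted p = 0.344) on the bright-gene scale. Blockade against Irf4-/- IgG was 1.89 (adjusted p = 0.0111) on the 75th percentile scale and 0.87 (SE 0.38, adjusted p = 0.121) scaled to the bright genes. Egln3 and Mgarp each rest on 1 probe.

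Vegfa, the vascular growth factor induced by HIF-1, was bright through 1 of its 4 probes and on the Irf4-/- IgG arrays only. That probe read 14.8 and 14.0 in WT, 346 and 934 in Irf4-/- IgG, and 5.65 and 9.14 in blockade. It was not well above background on the WT and blockade arrays. Against the lowest signal well above background, scaled to the bright genes, it was at least 25.9-fold higher in Irf4-/- IgG than in WT and at least 22.5-fold higher than in blockade, and on the 75th percentile scale at least 13-fold and 11.1-fold. The probe entered the test through Irf4-/- IgG alone, the group in which it is high, so its p-values are not given. The other 3 probes of Vegfa read 3.30 to 21.2 on all arrays, so the probes disagree. On the bright-gene scale 42.1% of all genes were called higher in Irf4-/- IgG.

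**Figure D4:**
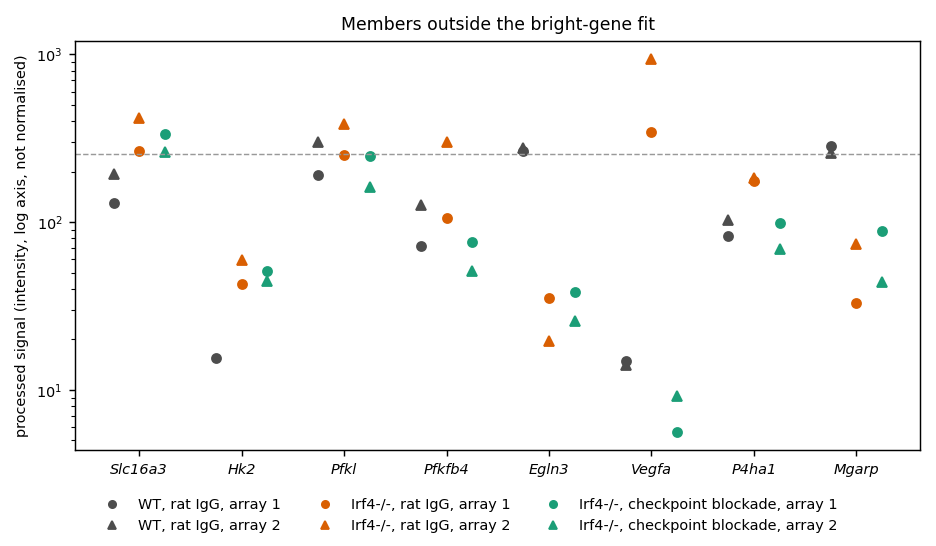
Processed signal, on a log axis and not normalised between arrays, of the 8 members outside the bright-gene fit, by group and array. The dashed line is an intensity of 256, the minimum that a gene's mean over the arrays had to reach. Egln3 and Mgarp are highest on the 2 WT arrays, the Vegfa probe on the 2 Irf4-/- IgG arrays, and Hk2 lacks WT array 2.

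The other hypoxia response genes passed in no comparison of bright genes. There Bnip3 and Bnip3l, receptors for the removal of mitochondria, Ankrd37, the Myc antagonist Mxi1 and the mTORC1 inhibitor Ddit4 ranged from -0.34 to 0.54 in Irf4-/- IgG against WT, from -0.38 to 0.23 in blockade against Irf4-/- IgG and from -0.65 to 0.44 in blockade against WT. On the 75th percentile scale Bnip3l (-1.04, limma adjusted p = 0.0246) and Ddit4 (-1.72, adjusted p = 0.0417) passed in Irf4-/- IgG against WT. In blockade against Irf4-/- IgG Bnip3l (1.20, adjusted p = 0.0172) and Ankrd37 (1.05, adjusted p = 0.0276) passed on that scale. The median bright gene stood there at -1.05 and 1.09. The values by array below are from the bright-gene fit. Mxi1 read 8.71 and 8.78 in WT, 9.45 and 9.13 in Irf4-/- IgG and 9.1 and 8.73 in blockade. Irf4-/- IgG was higher by 0.54 (SE 0.18, limma adjusted p = 0.161). Ddit4 varied more than any other bright member between the arrays of each Irf4-/- group. Its Irf4-/- IgG arrays read 14.17 and 15.76 and enclosed the WT values of 15.49 and 15.13, so its interval of -1.66 to 0.98 allows a change in either direction. P4ha1, the collagen prolyl hydroxylase subunit, was under the minimum and passed on neither scale (-0.23 and 0.76 in Irf4-/- IgG against WT). Its second probe read 260 and 845 on the Irf4-/- IgG arrays and 5.08 to 27.4 on the other 4.

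Beyond the members, 104 listed genes of the same pathways were examined, of which 41 were bright and 46 more were tested under the minimum. In the list of other glycolysis, pyruvate and pentose phosphate genes, 0 of 15 bright genes passed in any comparison. The nearest was Mpc1, a subunit of the mitochondrial pyruvate carrier, which read 11.06 and 10.98 in WT, 10.35 and 10.37 in Irf4-/- IgG and 10.81 and 10.87 in blockade. It stood 0.66 under WT in Irf4-/- IgG (limma adjusted p = 0.0511). Without adjustment 1 of the 15 was higher and 5 lower at p under 0.05 in that comparison, against 23.4% of all bright genes in either direction. Of 8 bright genes among Myc, mTOR and AMPK regulators none passed, with 1 higher and 1 lower at an unadjusted p under 0.05 in Irf4-/- IgG against WT, beside the same 23.4%. Myc itself read 7.99 to 9.14 over the 6 arrays, with 0.09 in that comparison (adjusted p = 0.896).

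Of 18 other bright hypoxia response genes, 1 passed, in blockade against WT, where 1.11% of all bright genes did. This was Angptl4, a secreted inhibitor of lipoprotein lipase, at 7.33 and 7.61 in WT, 8.39 and 8.23 in Irf4-/- IgG and 8.70 and 8.66 in blockade. It was 1.21 higher in blockade than in WT (SE 0.14, limma adjusted p = 0.0338) and 0.84 higher in Irf4-/- IgG (adjusted p = 0.0550), and whether those changes differ is given by blockade against Irf4-/- IgG, 0.37 (adjusted p = 0.160). Among the 46 listed genes under the minimum, scaled to the bright genes, 24 passed as higher and 1 as lower in Irf4-/- IgG against WT, beside 42.1% and 0.835% of all genes. On the 75th percentile scale 13 passed as higher and 9 as lower, beside 31.5% and 27.4% of all genes. A gene could enter these tests through Irf4-/- IgG alone, the group in which weak probes read higher. The counts of higher calls are therefore not read as a result about the listed genes. The lower one on the bright-gene scale was Epas1, which encodes HIF-2α and is named after its values were seen. Its intensities were 165 and 358 in WT, 55.3 and 95.8 in Irf4-/- IgG, and 37.3 and 30.6 in blockade. Both WT arrays were above the other 4, and the difference of Irf4-/- IgG from WT was -1.95 (SE 0.30, adjusted p = 0.00529) on the bright-gene scale. In blockade against WT it was -2.52 (SE 0.30, unadjusted p = 0.000373, adjusted p = 0.206).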

How the data were processed

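Total RNA from sorted TEa cells (0.5 µg) was labelled with Cy3, per the labels' protocols. Per the file headers the authors read spots with Agilent Feature Extraction 11.0.1.1 (9.1 in the submitters' processing notes). The deposited signal is a linear intensity, corrected for background and not scaled between arrays, and the deposited value table divides it by 1 number per array.

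Log2 intensity was averaged over the usable spots of each probe (55371 of 56605 probes). Probes well above background on both arrays of at least 1 group entered, with the brightest probe per gene. Genes were named through RefSeq accessions, which covered 58.3% of probes. limma 3.58.1 in R 4.3.3 (lmFit, eBayes, 3 residual degrees of freedom) was tested on simulated data. No spot was saturated. All arrays were on 1 slide and in 1 scan. The number of arrays, 2 per group, limits the precision. The members and lists were chosen with earlier results of these data known. All 35 members are named by role. Values on every array are given for members past the threshold, Hif1a and members of their families, and for some named after their values were seen. Of the other pathway genes those past the threshold of the bright-gene fit are named.

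Alternatives cover other normalisations, minimums, background correction, blocks, probe rules and leaving out each array.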

Additional observations from a re-analysis of the deposited data

How the results depend on the processing

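The main counts over bright genes were 160, 28 and 95 calls, with 1, 0 and 0 bright members, in Irf4-/- IgG against WT, blockade against Irf4-/- IgG and blockade against WT. The cause of each change below was not tested. Centring on the array median over bright genes gave 271 and 630 calls in the first 2 comparisons, 2 and 5 bright members, and member medians of 0.14 and 0.12 in the last 2. A minimum mean log2 of 7 gave 269 and 63 calls, and 1 member under the first minimum passed in blockade against WT and 0 in the others, since only Slc16a3 and Pfkl then entered. A minimum of 9 gave 94 calls in the first comparison. normexp background correction gave 56 calls in the second and 0 bright members in the first. With the slide row as a random block the second comparison had 117 calls and 1 member. With it as a fixed block, added after seeing the data, the calls were 88, 0 and 32, with 0 members in the first comparison. A fit on only the 4 arrays of the comparison gave 6 calls and 0 members in the first. limma's unadjusted p was under 0.05 for 23.4%, 28.5% and 19.2% of bright genes in the main fit.

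In the all-gene fit on the 75th percentile, calls were 16644, 16612 and 0, bright members that passed were 21 and 22 in the first 2 comparisons, and member medians were -1.05, 1.15 and 0.14. There the median bright gene stood at -1.05 and 1.09, and the sign turned for 8 members in Irf4-/- IgG against WT: Slc16a1 -0.09, Hk1 -1.07, Aldoa -1.34, Pdk1 -0.96, Hif1a -1.05, Egln1 -0.94, Egln2 -0.96 and Bnip3l -1.04. It turned for 9 in blockade against Irf4-/- IgG: Slc2a1 0.82, Slc16a1 0.71, Hk1 0.95, Aldoa 1.43, Pdk1 0.72, Hif1a 0.96, Egln1 0.78, Egln2 0.85 and Bnip3l 1.20. Scaled by probes detected on all 6 arrays, calls were 11541, 12348 and 0, bright members 5 and 7, member medians -0.33, 0.39 and 0.11, and 1 member under the minimum passed in blockade against Irf4-/- IgG, against 5 in the main setting. With all genes on the bright-gene median (added) calls were 12127, 12610 and 0, bright members 2 and 4, member medians 0.14 and 0.12 in the last 2, and 1 member under the minimum passed in the second. On that scale Slc16a3 (0.86) and Pfkl (0.17) turned in the first comparison and Pfkl (-0.10) in the second. In both this setting and the one before it, the 1 member under the minimum that passed was Vegfa, which entered through Irf4-/- IgG alone.

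Leaving out 1 array at a time gave 6 to 102, 0 to 318 and 0 to 111 calls. No bright member passed in any of these (0 to 0 in each comparison), and member medians ranged from -0.06 to 0.03, -0.05 to 0.04 and -0.01 to 0.07. Members under the minimum that passed were 3 in the first comparison and 2 to 4 in the second, with 0 in blockade against WT. Vegfa, which entered the test through Irf4-/- IgG alone, is among those members in both comparisons. The group left with 1 array is assumed to vary like the others. The replicate labels do not pair the arrays (correlation of deviations 0.02, -0.2 and 0.03). With a replicate block calls were 23 and 54 in the comparisons of each Irf4-/- group with WT, with 0 members in the first. A change of sign in a value that passed in neither fit is not listed. It occurred 42, 37 and 21 times over members and settings in the 3 comparisons.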
